A study of Mus musculus with 15 samples.

Results

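The genes described here are 9 components and receptors of the complement system, whose transcripts were counted by bulk RNA sequencing in dendritic cells grown from mouse bone marrow (BMDCs). They are the chains of C1q (C1qa, C1qb and C1qc), C3, factor B (Cfb), properdin (Cfp), and the receptors C3ar1, C5ar1 and C5ar2. They were taken by symbol from read counts of 50554 genes in 15 libraries, and all 9 passed the filter on low counts, as did 20865 genes in all. All mice carried CreERT2, a Cre recombinase switched on by tamoxifen, and all received tamoxifen, which deletes a floxed Mysm1 allele (written Δ). MYSM1 is a deubiquitinase that removes ubiquitin from histone H2A. In Δ/DN mice the remaining allele encodes a catalytically inactive MYSM1 (Mysm1fl/DN before deletion), and in Δ/+ mice it is wild type (Mysm1fl/+). Marrow, from over 12 weeks after the tamoxifen, was grown for 9 days with 20 ng/mL GM-CSF. The cells were then held for 18 h with 10 ng/mL of lipopolysaccharide (LPS), the Gram-negative outer membrane component sensed by TLR4, or unstimulated (US). There were 4 Δ/DN LPS, 3 Δ/+ LPS, 4 Δ/DN US and 4 Δ/+ US libraries. No source used here gives the promoter that drives CreERT2, the age of the mice or the completeness of the deletion.

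Complement is a cascade of plasma and locally made proteins. C1q binds antibody on a surface and starts the classical pathway, while factor B joins C3b to form the alternative pathway convertase, which properdin stabilises. Both routes cleave C3, and the fragments C3a and C5a act on the G protein-coupled receptors that C3ar1 and C5ar1 encode. C5ar2 encodes a further C5a receptor, which does not couple to G proteins. Myeloid cells are a main source of C1q and properdin, and C3 and factor B are made by the liver and by activated macrophages and dendritic cells. GM-CSF cultures of marrow are known to hold macrophage-like cells beside dendritic cells.

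Libraries held 37256651 to 104041282 counted reads. The letters A and C stand for opposite genotypes in the series text and in the sample names. Genotypes follow the sample labels here, and each direction between them turns round if the series text holds. In CPM, a read count scaled by library size, Mysm1 lay at 35.3 ± 3.75 in Δ/DN LPS (SD, n = 4) and 43.2 ± 1.71 CPM in Δ/+ LPS libraries (n = 3), and at 41.2 ± 9.23 CPM in Δ/DN US and 50.4 ± 3.25 CPM in Δ/+ US libraries (n = 4 each). Its total reads do not tell the alleles apart. The dendritic cell factor gene Zbtb46 averaged 29.7 to 64.2 CPM over the 4 groups and Flt3 1.19 to 1.52 CPM. Library names fall into a set 2 and a set 3, and no source used here says what these are. Set 3 holds replicates 3 and 4 of both Δ/DN groups and replicate 4 of Δ/+ US. Culture 4 of Δ/DN was the 1 culture with abundant Xist and no Y-linked reads, and culture 3 of Δ/DN had low Ddx3y, a Y-linked gene, at 1.94 CPM without and 3.69 CPM with LPS. Culture 3 was not low in Kdm5d, Uty and Eif2s3y, which are also Y-linked. With culture 4 at 0, the 4 Δ/DN US libraries still averaged 16.8, 19.0 and 31.8 CPM, with highs of 23.3, 28.3 and 43.1 CPM. Beside each call of a member that ended or arose without culture 3, culture 4 or both, the value without them is given below.

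Levels are CPM on each library's TMM-scaled total, and levels per length divide CPM by the kilobases of the longest coding transcript. Differences are log2 values ± SE from edgeR's quasi-likelihood test over all 15 libraries, with library set as a term. A gene was called where its Benjamini-Hochberg adjusted p over 20865 genes was under 0.05. No source used here says whether cultures came from separate mice, so the p-values measure the spread between these libraries.

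Per length, Cfb and C3 headed the order with LPS and Cfp without it, and C5ar2 was last in every group. In Δ/DN LPS libraries the means were 391 CPM per kb for Cfb, 319 for C3, 251 for Cfp, 187 for C1qb, 88.2 for C1qc, 56.5 for C1qa, 22.7 for C5ar1, 22.0 for C3ar1 and 0.270 for C5ar2. In Δ/+ LPS libraries Cfb averaged 774, C3 357, Cfp 194, C1qb 158, C1qc 74.7, C1qa 45.2, C5ar1 21.9, C3ar1 18.3 and C5ar2 0.160 CPM per kb, the same order. Without LPS, Cfb stood in the middle of the order. Δ/DN US libraries had 234 CPM per kb of Cfp, 179 of C1qb, 131 of C3, 87.4 of C1qc, 67.1 of C1qa, 46.2 of Cfb, 31.7 of C3ar1, 14.7 of C5ar1 and 2.74 of C5ar2. Δ/+ US libraries had 172 CPM per kb of Cfp, 140 of C3, 134 of C1qb, 61.2 of C1qc, 47.7 of Cfb, 41.0 of C1qa, 39.9 of C3ar1, 23.6 of C5ar1 and 5.06 of C5ar2. The following neighbours in these orders lay closer than the larger of their SDs. They were Cfb and C3, and C5ar1 and C3ar1, in Δ/DN LPS, and C1qc, C1qa, Cfb and C3ar1 in Δ/DN US. In Δ/+ US they were C3 and C1qb, and C1qc, Cfb, C1qa and C3ar1.

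**Figure D1:**
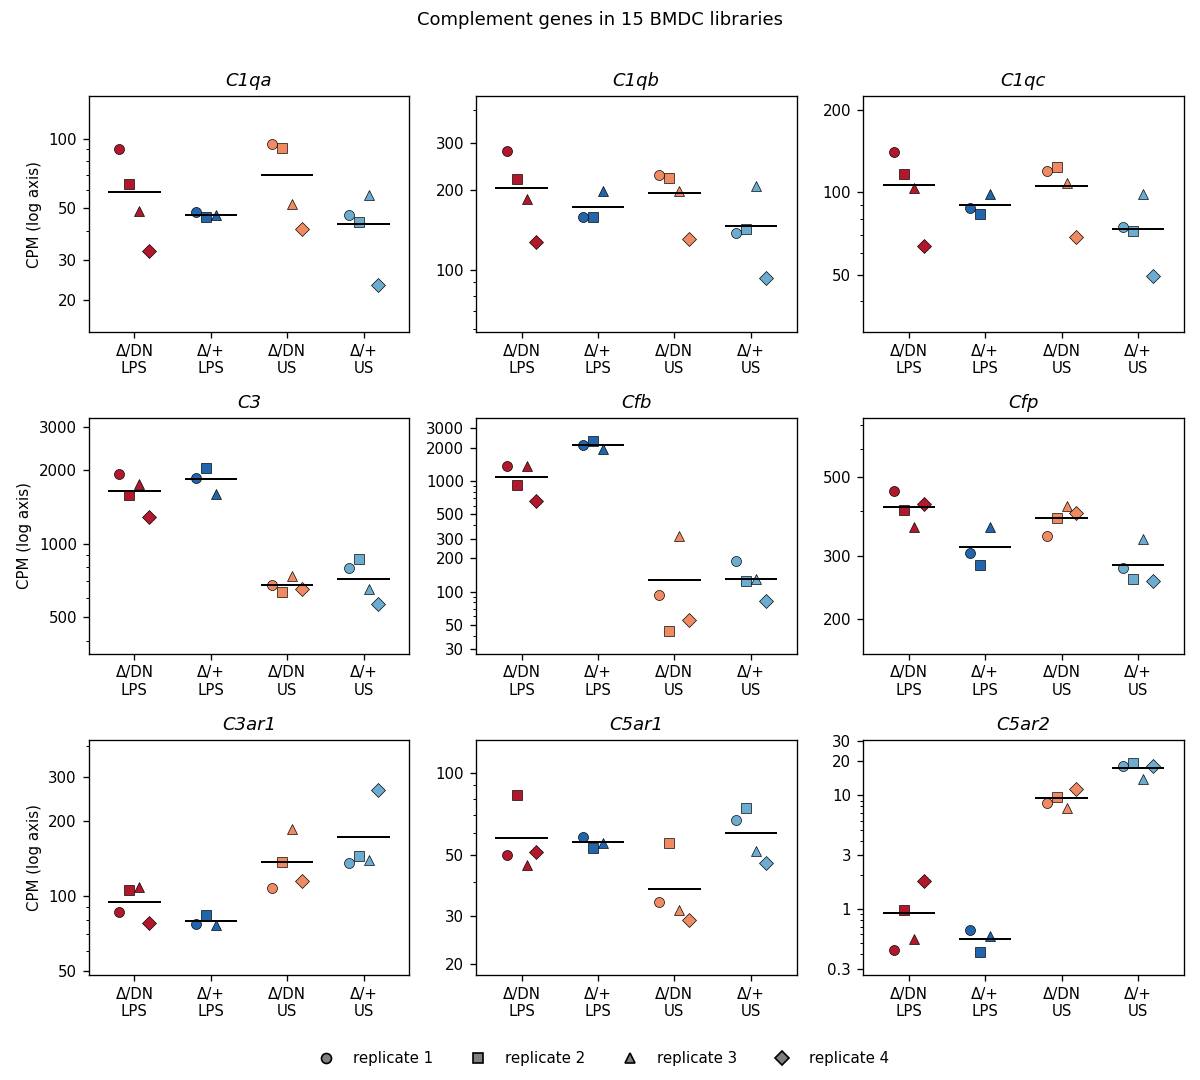
Levels of the 9 complement genes in each library, in CPM on a log axis, by group from Δ/DN LPS on the left to Δ/+ US on the right; points are libraries, marker shapes are replicate numbers and lines are group means. Cfb and C3 stand higher and C5ar2 lower with LPS in every library, and the highest C5ar1 library of Δ/DN LPS lies at 82.8 CPM.

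Without LPS, transcripts of all C1q chains and of properdin were higher in Δ/DN libraries and those of the C5a receptor gene C5ar1 were lower. C1qa was 1.91-fold, C1qc 1.60-fold, C1qb 1.52-fold and Cfp 1.37-fold higher. C5ar1 was 1.49-fold lower. These are 5 of 9 members called, 4 higher and 1 lower, where 10.5% of all genes tested were called, 5.01% higher and 5.45% lower. The median log2 difference was -0.04 over the 9 members and 0.01 over all genes. With LPS, 1 of 9 members, C1qa, was called higher in Δ/DN libraries, at 1.68-fold, where 8.60% of all genes were called, 5.37% higher and 3.23% lower. The members' median log2 difference with LPS was 0.39, and that of all genes 0.01. In these bulk samples, fewer cells of a type and less RNA per cell cannot be told apart.

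C1qa, C1qb and C1qc encode the chains that assemble into C1q, the recognition molecule of the classical pathway. C1qa had 95.4, 91.0, 52.1 and 40.6 CPM in Δ/DN US libraries, in replicate order here and below, against 46.6, 43.7, 57.1 and 23.3 CPM in Δ/+ US libraries. The groups overlapped, and the lowest library of each genotype was of set 3. Within set 2 the Δ/DN values of 95.4 and 91.0 CPM were above all Δ/+ values, and within set 3 those of 52.1 and 40.6 CPM were above the Δ/+ value of 23.3 CPM. The C1qa log2 difference was 0.94 ± 0.14 (adjusted p = 0.0039). It stayed called in each of 8 refits that left out 1 US library, at 0.86 to 1.02, and within set 2 alone (0.90, adjusted p = 0.00839). With no term for library set it was 0.71 (adjusted p = 0.234).

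With LPS, C1qa had 90.0, 63.7, 48.7 and 32.8 CPM in Δ/DN libraries, against 48.4, 45.9 and 46.8 CPM in Δ/+ libraries, which are all of set 2. The Δ/DN libraries of set 2 were above the Δ/+ range and those of set 3 ran from just above to below it. The log2 difference was 0.75 ± 0.16 (adjusted p = 0.0161), and 0.71 within set 2 (adjusted p = 0.0162). The call was lost without Δ/+ LPS replicate 1 (adjusted p = 0.0586) or replicate 2 (adjusted p = 0.0907), and with no set term the difference was 0.32 (adjusted p = 0.653).

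C1qb had 228, 223, 198 and 131 CPM in Δ/DN US libraries, against 138, 143, 208 and 93.2 CPM in Δ/+ US libraries. C1qc had 120, 124, 108 and 68.6 CPM in Δ/DN US libraries, against 74.4, 72.4, 98.4 and 49.3 CPM in Δ/+ US libraries. For both chains replicate 4 was the lowest library of either genotype, and the groups overlapped. The log2 differences were 0.60 ± 0.18 for C1qb (adjusted p = 0.0443) and 0.67 ± 0.17 for C1qc (adjusted p = 0.0253). These calls were less steady than that of C1qa. When each US library was left out in turn, C1qb stayed called in 1 of 8 refits, that without Δ/+ replicate 3. C1qc stayed called in 4 of 8, losing its call without Δ/+ replicate 1, 2 or 4 or Δ/DN replicate 2. With no set term neither was called (C1qb adjusted p = 0.359, C1qc adjusted p = 0.226), and within set 2 C1qb was not (adjusted p = 0.18). Without cultures 3 and 4 of Δ/DN, C1qb was not called (0.45, adjusted p = 0.15) and C1qc was (0.56, adjusted p = 0.0308).

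With LPS, C1qb had 282, 220, 185 and 127 CPM in Δ/DN libraries, against 159, 159 and 199 CPM in Δ/+ libraries. C1qc had 140, 117, 104 and 63.7 CPM in Δ/DN libraries, against 87.9, 83.4 and 98.4 CPM in Δ/+ libraries. The Δ/DN libraries spanned the Δ/+ range for both chains. Neither difference was called, at 0.51 ± 0.20 for C1qb (adjusted p = 0.119) and 0.50 ± 0.19 for C1qc (adjusted p = 0.114), and the 95% intervals were 0.09 to 0.94 and 0.09 to 0.91. C1qc with LPS was called without culture 3 (0.46, adjusted p = 0.0312), without culture 4 (0.55, adjusted p = 0.0359) and without both (0.50, adjusted p = 0.036).

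LPS itself moved no C1q chain past the threshold in either genotype. In Δ/DN the log2 changes were -0.23 for C1qa, 0.03 for C1qb and 0.00 for C1qc, and in Δ/+ they were -0.04, 0.12 and 0.17. C1qa was lower with LPS in 4 of 4 Δ/DN cultures, by 1.06-fold to 1.43-fold. With culture as a block its change in Δ/DN was called, at -0.24 (adjusted p = 0.0377). These small values depend on the scaling. With library totals alone the median of all genes was -0.67 in Δ/DN and -0.73 in Δ/+ in place of -0.09 and -0.08, and the chains then fell by 0.54 to 0.82 in Δ/DN and by 0.49 to 0.70 in Δ/+, each called.

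C1qb and C1qc kept nearly fixed proportions to each other, and C1qa varied more. Of their summed level per length, C1qb held 55.9%, C1qc 26.5% and C1qa 17.6% on average over 15 libraries, with ranges of 51.8% to 59.1%, 24.9% to 28.5% and 14.5% to 22.9%. The C1qa share was 16.7 ± 1.48% in Δ/DN LPS, 16.3 ± 1.61% in Δ/+ LPS, 19.7 ± 3.47% in Δ/DN US and 17.2 ± 1.80% in Δ/+ US libraries, and was highest in Δ/DN US replicates 1 and 2, at 22.9% and 22.2%. The summed CPM of the chains varied more, between 166 in Δ/+ US replicate 4 and 512 in Δ/DN LPS replicate 1. C1qb and C1qc are neighbours on chromosome 4, on the same strand. Their profiles differed least of any member with another gene, on a measure not scaled to a gene's own spread (below). The 250 bases before their starts are therefore shown, from RefSeq on GRCm38.p6 (chr4:136886201-136886450 for C1qb and chr4:136892915-136893164 for C1qc, both minus strand), with motif matches in capitals. The table used held no entry for C1qa. The bases that follow the start were found in a GENCODE M21 transcript of C1qc but in none of C1qb. The C1qb start, and motif positions counted from it, are thus less certain.
C1qb: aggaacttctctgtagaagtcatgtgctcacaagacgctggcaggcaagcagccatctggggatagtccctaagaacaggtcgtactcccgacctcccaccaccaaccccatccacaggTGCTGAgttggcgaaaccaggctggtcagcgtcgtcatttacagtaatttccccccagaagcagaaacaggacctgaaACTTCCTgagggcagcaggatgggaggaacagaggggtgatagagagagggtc
C1qc: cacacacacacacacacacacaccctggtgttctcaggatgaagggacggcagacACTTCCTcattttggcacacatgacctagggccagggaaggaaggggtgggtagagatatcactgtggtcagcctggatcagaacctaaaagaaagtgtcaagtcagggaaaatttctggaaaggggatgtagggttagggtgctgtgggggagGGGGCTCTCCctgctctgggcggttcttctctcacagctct
Both windows hold the ETS core in its reverse complement, ACTTCCT, in C1qb 53 to 47 and in C1qc 195 to 189 bases before the start. C1qb also holds the core of the MAF recognition element, TGCTGA, and C1qc an NF-kB consensus match. Each window was searched on both strands for 7 motifs. In 32851 promoter windows of this length, the ETS core AGGAAGT was found in 7.69%, TGCTGA in 16.1%, the NF-kB consensus in 7.25%, the C/EBP motif TTGCNNAA in 9.56%, the interferon-stimulated response element in 2.98%, the GAS motif TTCNNNGAA in 7.02% and TATAAA in 12.4%. No match overlapped another in the windows shown.

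**Figure D2:**
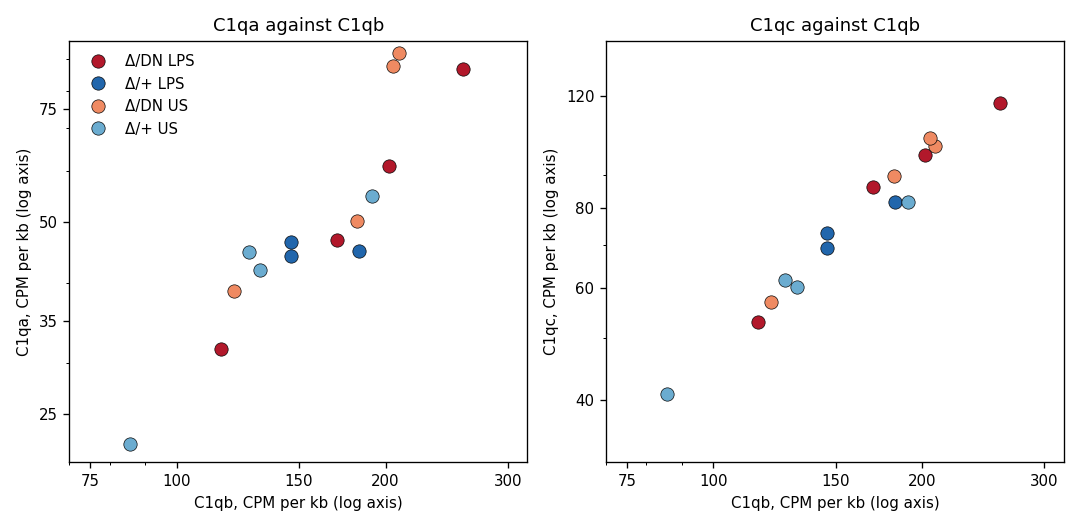
C1qa (left) and C1qc (right) against C1qb in 15 libraries, in CPM per kb on log axes of equal span; points are libraries, coloured by group. C1qc follows C1qb closely, from Δ/+ US replicate 4 at the low end to Δ/DN LPS replicate 1 at the high end, while C1qa in Δ/DN US replicates 1 and 2, at 91.7 and 87.5 CPM per kb, lies above the other libraries of like C1qb level.

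C3 and Cfb were higher with LPS in both genotypes, and C5ar2 and C3ar1 were lower. In Δ/DN cultures 5 of 9 members were called with LPS, C3, Cfb and C5ar1 higher and C3ar1 and C5ar2 lower, where 48.2% of all genes tested were called, 23.1% higher and 25.1% lower. In Δ/+ cultures 4 of 9 were called, C3 and Cfb higher and C3ar1 and C5ar2 lower, where 47.7% of all genes were called, 22.4% higher and 25.3% lower. In both genotypes the members were called at about the share of all genes. The members' median log2 change was 0.03 in Δ/DN and 0.12 in Δ/+, beside -0.09 and -0.08 over all genes.

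C3 encodes the component on which the pathways converge. It had 1927, 1585, 1761 and 1282 CPM in Δ/DN LPS libraries, against 680, 634, 736 and 650 CPM in Δ/DN US libraries. In Δ/+ cultures it had 1857, 2042 and 1598 CPM with LPS, against 792, 864, 654 and 567 CPM without. All LPS libraries lay above all US libraries in both genotypes. Of all genes tested, 40.9% in Δ/DN and 52.1% in Δ/+ had LPS and US libraries that did not overlap. C3 was 2.41-fold higher with LPS in Δ/DN (log2 1.27 ± 0.15, adjusted p = 5.5e-06) and 2.49-fold higher in Δ/+ (1.32 ± 0.16, adjusted p = 7.3e-06). The change per culture ran from 1.97-fold to 2.83-fold in 4 Δ/DN cultures and from 2.34-fold to 2.45-fold in 3 Δ/+ cultures. With library totals alone the C3 rise was 0.69 in Δ/DN and 0.66 in Δ/+, both still called. Between genotypes C3 differed by -0.08 with LPS and -0.04 without (adjusted p = 0.805 and 0.907), and the 95% intervals of -0.44 to 0.27 and -0.36 to 0.28 leave room for a difference of either sign. The change with LPS differed by -0.04 between genotypes, with an interval of -0.50 to 0.41.

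Cfb encodes factor B, the serine protease of the alternative pathway convertase. It had 1370, 914, 1356 and 664 CPM in Δ/DN LPS libraries, against 93.6, 43.8, 316 and 54.9 CPM in Δ/DN US libraries. In Δ/+ cultures it had 2109, 2321 and 1956 CPM with LPS, against 187, 125, 130 and 82.2 CPM without. All LPS libraries were above all US libraries, and Δ/DN US replicate 3 stood apart from the other US libraries. Among 8 genes listed as LPS response controls, Isg15, Cxcl10, Cd40 and Nos2 were also highest in replicate 3 of the Δ/DN US libraries. Their ranges there were 8.46 to 139, 9.46 to 144, 8.68 to 39.3 and 0.855 to 10.1 CPM. Il12b, at 3.23 to 8.88 CPM, was highest in another library. The cause was not tested. Cfb was 8.89-fold higher with LPS in Δ/DN (log2 3.15 ± 0.59, adjusted p = 0.000738) and 16.7-fold higher in Δ/+ (4.06 ± 0.62, adjusted p = 0.000159). Per culture the rise was 14.6-fold, 20.9-fold, 4.29-fold and 12.1-fold in Δ/DN and 11.3-fold to 18.5-fold in Δ/+. Without culture 3 the Δ/DN log2 change was 3.92 (adjusted p = 6.5e-07).

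Every Δ/DN LPS library had less Cfb than every Δ/+ LPS library, but the log2 difference of -1.10 ± 0.61 was not called (adjusted p = 0.291), and 24.6% of all genes had groups that did not overlap in that comparison. Without LPS the Cfb difference was -0.20 ± 0.60 (adjusted p = 0.881). The outcome turned on culture 3. Without its US and LPS libraries Cfb was called lower in Δ/DN, by -0.95 with LPS (adjusted p = 0.0394) and -0.96 without (adjusted p = 0.024). Without cultures 3 and 4 the differences were -0.91 (adjusted p = 0.102) and -1.12 (adjusted p = 0.0709). The ratio of Cfb to C3 CPM was 0.518 to 0.770 in Δ/DN LPS and 1.14 to 1.22 in Δ/+ LPS libraries, and 0.0691 to 0.429 in Δ/DN US and 0.145 to 0.236 in Δ/+ US libraries.

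Cfp encodes properdin, which stabilises the alternative pathway convertase and lies on the X chromosome. It had 340, 383, 413 and 396 CPM in Δ/DN US libraries, against 278, 259, 334 and 255 CPM in Δ/+ US libraries. With LPS it had 457, 403, 362 and 420 CPM in Δ/DN libraries, against 305, 283 and 361 CPM in Δ/+ libraries. In both states the genotypes did not overlap, though the nearest libraries were 340 and 334 CPM without LPS and 362 and 361 CPM with it. Of all genes, 12.5% did not overlap without LPS and 24.6% with it. The log2 difference was 0.46 ± 0.12 without LPS (adjusted p = 0.0294) and 0.39 ± 0.13 with LPS, where it was not called (adjusted p = 0.0804). Without culture 3 it was called with LPS (0.44, adjusted p = 0.0415). The call without LPS held in 3 of 8 refits without 1 library, those without Δ/+ replicate 3 or Δ/DN replicate 1 or 3. It held with no set term (0.44, adjusted p = 0.037). Within set 2 the difference was 0.30 (adjusted p = 0.227), without culture 4 it was 0.44 (adjusted p = 0.0528) and without cultures 3 and 4 it was 0.30 (adjusted p = 0.195). Values of culture 4, the one with abundant Xist, lay within those of the other Δ/DN cultures. LPS moved Cfp by 0.10 in Δ/DN and 0.16 in Δ/+, neither called, and with library totals alone Cfp fell by 0.48 and 0.49.

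**Figure D3:**
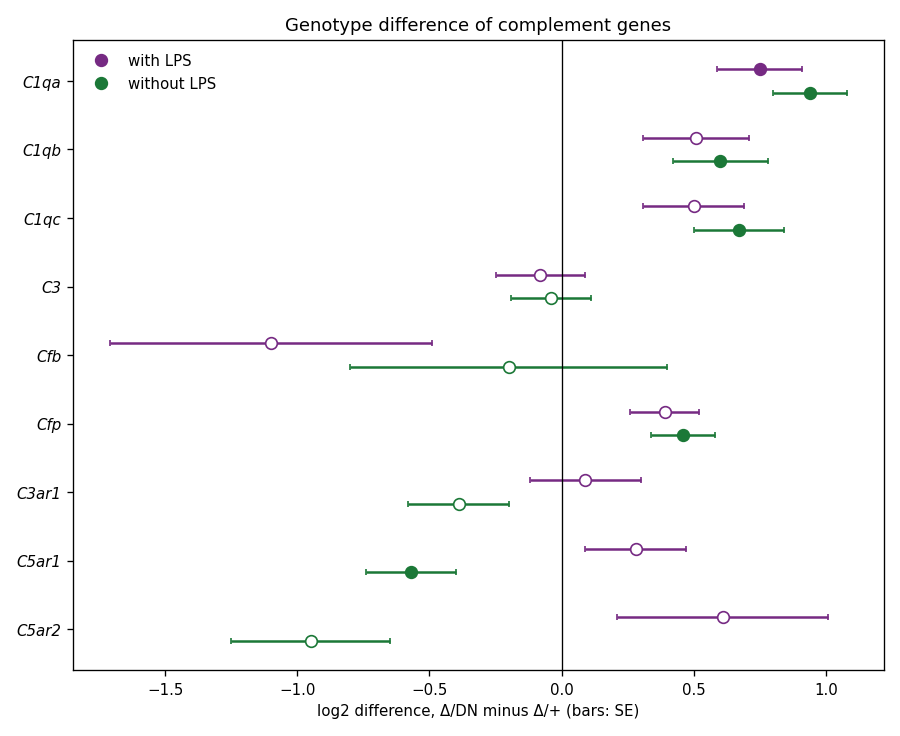
Log2 difference of Δ/DN from Δ/+ for each of the 9 genes with LPS (purple, upper of each pair) and without (green); bars are SE, filled points were called and open points were not. The C1q chains and Cfp lie right of 0 in both states, and C5ar2 lies at 0.61 with LPS and -0.95 without.

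The anaphylatoxin receptors responded to LPS in different ways. C5ar2 fell most of all members in both genotypes, C3ar1 fell in both, and C5ar1 rose in Δ/DN and was not called in Δ/+. C5ar2 encodes the C5a receptor that does not couple to G proteins. It had 0.434, 0.976, 0.548 and 1.75 CPM in Δ/DN LPS libraries, against 8.59, 9.69, 7.80 and 11.4 CPM in Δ/DN US libraries. In Δ/+ cultures it had 0.654, 0.419 and 0.576 CPM with LPS, against 18.1, 19.3, 13.8 and 18.2 CPM without. All LPS libraries lay far below all US libraries, with 26 to 148 reads in a library with LPS and 600 to 1616 without. C5ar2 was 10.1-fold lower with LPS in Δ/DN (log2 -3.34 ± 0.33, adjusted p = 1.9e-06) and 29.9-fold lower in Δ/+ (-4.90 ± 0.40, adjusted p = 3.5e-07).

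Without LPS, every Δ/DN library had less C5ar2 than every Δ/+ library, at 9.38 ± 1.57 and 17.3 ± 2.41 CPM (SD, n = 4 each). Of all genes, 12.5% had groups that did not overlap in that comparison. The log2 difference of -0.95 ± 0.30 missed the threshold (adjusted p = 0.0564), as it did in each of 8 refits without 1 US library. It was also not called with library totals alone (-0.86, adjusted p = 0.155), with no filter on low counts (-0.95, adjusted p = 0.156), with no set term (-0.89, adjusted p = 0.0856), with RLE scaling (-0.96, adjusted p = 0.0546), in set 2 (-0.92, adjusted p = 0.0569) or without cultures 3 and 4 (-0.92, adjusted p = 0.0549). It was called in DESeq2 (-0.96, adjusted p = 0.0136), with culture as a random effect (-0.89, adjusted p = 0.00722), with only the US groups in the fit (-0.88, adjusted p = 0.0273), without culture 3 (-0.88, adjusted p = 0.0329) and without culture 4 (-0.99, adjusted p = 0.0161). With LPS the difference was 0.61 ± 0.40 (adjusted p = 0.38), and 0.28 without culture 4, whose LPS library had 1.75 CPM. The log2 fall with LPS was 1.56 ± 0.48 smaller in Δ/DN (unadjusted p = 0.00613, adjusted p = 0.335). Per culture the level was 19.8-fold, 9.92-fold, 14.3-fold and 6.54-fold lower in Δ/DN and 27.6-fold, 46.0-fold and 24.0-fold lower in Δ/+.

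C5ar1 encodes the main C5a receptor, which drives migration of myeloid cells. It had 50.1, 82.8, 45.9 and 51.5 CPM in Δ/DN LPS libraries, against 33.7, 55.5, 31.4 and 29.0 CPM in Δ/DN US libraries. In Δ/+ cultures it had 58.3, 53.3 and 55.2 CPM with LPS, against 67.0, 74.3, 51.7 and 46.9 CPM without. Culture 2 of Δ/DN had the highest value in both states, so that its US library overlapped the LPS libraries of the others, but each Δ/DN culture was higher with LPS, by 1.46-fold to 1.77-fold. The Δ/+ cultures ran from 1.39-fold lower to 1.07-fold higher.

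C5ar1 was 1.55-fold higher with LPS in Δ/DN (log2 0.63 ± 0.17, adjusted p = 0.00565), a call kept in each of 8 refits without 1 library but lost in set 2 alone (0.61, adjusted p = 0.117) and without cultures 3 and 4 (0.59, adjusted p = 0.136). In Δ/+ the change was -0.22 ± 0.18 (adjusted p = 0.356). Scaling matters here, since with library totals alone the Δ/DN change was 0.06 (adjusted p = 0.789) and the Δ/+ change was called, at -0.88 (adjusted p = 0.00278). The difference between these responses was 0.85 ± 0.25 (unadjusted p = 0.00394, adjusted p = 0.308), with an interval of 0.32 to 1.38, and 0.94 with library totals alone. With culture as a fixed block it was 0.82 and called (adjusted p = 0.0373), with culture as a random effect 0.83 and not called (adjusted p = 0.109). Without LPS, C5ar1 was lower in Δ/DN (log2 -0.57 ± 0.17, adjusted p = 0.0453), a call kept in 2 of 8 refits without 1 US library, those without Δ/+ replicate 3 or Δ/DN replicate 2. The call was lost without culture 3 (-0.60, adjusted p = 0.0592), without culture 4 (-0.54, adjusted p = 0.107) and without both (-0.54, adjusted p = 0.264). With LPS C5ar1 differed by 0.28 ± 0.19 (adjusted p = 0.399).

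C5ar1 and C5ar2 are neighbours on chromosome 7 and lie on the same strand. Since the LPS response of Δ/DN had opposite signs for this pair, the 250 bases before each of their RefSeq starts on GRCm38.p6 are shown (chr7:16259339-16259588 for C5ar1, and chr7:16244155-16244404 and chr7:16242332-16242581 for 2 starts of C5ar2, all minus strand), with motif matches in capitals.
C5ar1: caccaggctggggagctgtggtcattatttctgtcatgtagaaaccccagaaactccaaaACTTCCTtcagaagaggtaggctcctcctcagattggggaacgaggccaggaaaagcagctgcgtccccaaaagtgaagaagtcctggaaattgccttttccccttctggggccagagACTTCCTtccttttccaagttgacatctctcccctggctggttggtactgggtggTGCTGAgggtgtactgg
C5ar2 at the start farther upstream: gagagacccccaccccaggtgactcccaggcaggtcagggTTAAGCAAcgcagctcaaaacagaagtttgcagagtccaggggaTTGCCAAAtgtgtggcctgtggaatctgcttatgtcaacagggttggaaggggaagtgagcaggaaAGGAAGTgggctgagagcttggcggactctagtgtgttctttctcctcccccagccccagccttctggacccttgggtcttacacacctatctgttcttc
C5ar2 at the other start: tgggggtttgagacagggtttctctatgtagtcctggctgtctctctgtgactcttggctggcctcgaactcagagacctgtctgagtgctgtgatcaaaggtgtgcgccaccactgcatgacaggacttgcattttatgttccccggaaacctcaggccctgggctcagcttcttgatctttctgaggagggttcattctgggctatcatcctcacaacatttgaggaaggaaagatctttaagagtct
The C5ar1 window holds 2 ETS cores, 190 to 184 and 72 to 66 bases before the start, and TGCTGA at 17 to 12 bases. The window of the farther upstream C5ar2 start holds 1 ETS core and 2 C/EBP motifs, and the other none of the 7 motifs.

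C3ar1 encodes the receptor for C3a. It had 85.9, 106, 109 and 77.6 CPM in Δ/DN LPS libraries, against 108, 137, 186 and 115 CPM in Δ/DN US libraries. In Δ/+ cultures it had 77.0, 83.4 and 76.6 CPM with LPS, against 136, 145, 140 and 266 CPM without. The Δ/+ groups did not overlap, the Δ/DN groups did, and replicate 4 of Δ/+ US stood well above the rest. C3ar1 was 1.42-fold lower with LPS in Δ/DN (log2 -0.51 ± 0.19, adjusted p = 0.0378) and 1.99-fold lower in Δ/+ (-0.99 ± 0.21, adjusted p = 0.00139). It was lower in each of 7 cultures, by 1.25-fold to 1.70-fold in Δ/DN and by 1.74-fold to 1.84-fold in Δ/+. The Δ/DN call was kept in 3 of 8 refits without 1 library and lost without LPS replicate 1, 3 or 4 or US replicate 2 or 3. It was -0.39 without culture 3 (adjusted p = 0.165), -0.34 without cultures 3 and 4 (adjusted p = 0.0581), and -0.50 with culture as a fixed block (adjusted p = 0.000304). Neither genotype difference was called, at 0.09 with LPS (95% interval -0.36 to 0.55) and -0.39 without (-0.80 to 0.01).

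**Figure D4:**
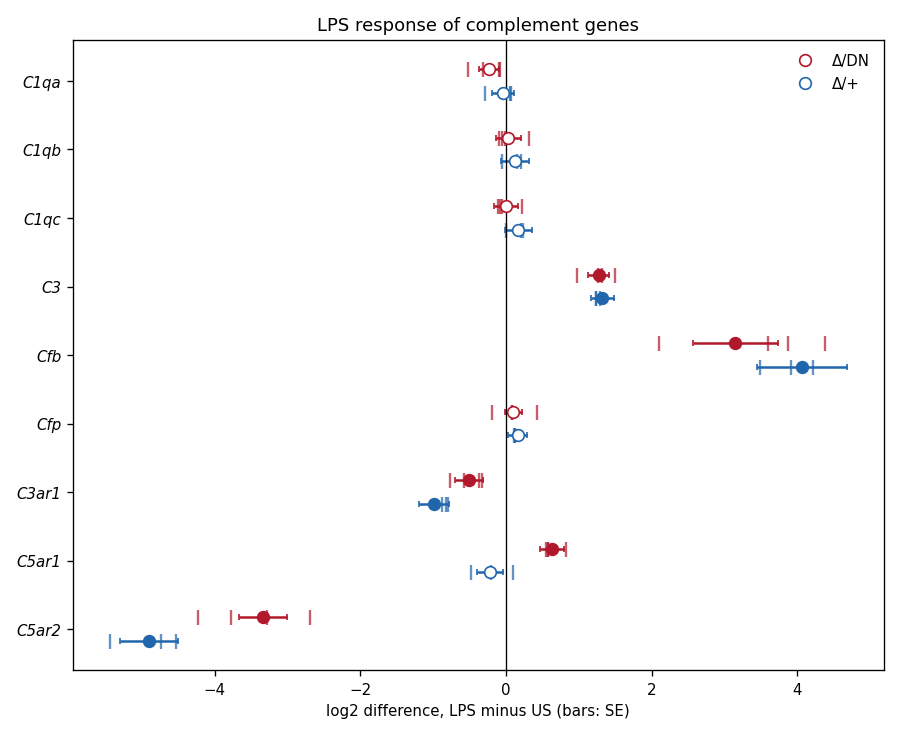
Log2 change with LPS of each of the 9 genes in Δ/DN (red, upper of each pair) and Δ/+ cultures (blue); bars are SE, filled points were called, open points were not, and short vertical marks are single cultures. Cfb and C3 lie right of 0 and C5ar2 and C3ar1 left of it in both genotypes, and C5ar1 lies at 0.63 in Δ/DN and -0.22 in Δ/+.

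The difference of the LPS responses asked whether LPS acted differently in Δ/DN and Δ/+ cultures. None of the 9 members was called by edgeR, where 0.00479% of all genes, 1 gene, was called. At an unadjusted p under 0.05 there were 2, C5ar1 and C5ar2, and DESeq2 and limma called 0, while edgeR with culture as a fixed block called 1, C5ar1. Largest after these were Cfb at -0.91 (95% interval -2.61 to 0.80), which was 0.01 without culture 3, and C3ar1 at 0.49 (-0.11 to 1.09).

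Among 43 other complement genes, 28 passed the filter. In Δ/DN cultures 8 were called higher and 3 lower with LPS, and in Δ/+ cultures 7 higher and 2 lower, where 48.2% and 47.7% of all genes were called. These are no larger shares than those of all genes. The median log2 change was 0.24 in Δ/DN and 0.35 in Δ/+. Serping1, which encodes C1 inhibitor, had 1.62 ± 1.07 CPM in Δ/DN LPS, against 0.0418 ± 0.0360 CPM in Δ/DN US libraries (SD, n = 4 each), and 3.64 ± 0.867 CPM in Δ/+ LPS (n = 3), against 0.0489 ± 0.0385 CPM in Δ/+ US libraries (n = 4). Its log2 change was 5.28 ± 0.72 in Δ/DN (adjusted p = 3.3e-05) and 6.09 ± 0.74 in Δ/+ (adjusted p = 1.1e-05), fitted against 0 to 10 reads in a US library.

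C1ra and C1rb encode the C1r protease that C1q activates. C1ra had 35.5 ± 5.70 CPM in Δ/DN LPS, against 20.8 ± 3.87 CPM in Δ/DN US libraries, and 50.2 ± 8.10 CPM in Δ/+ LPS, against 21.8 ± 5.36 CPM in Δ/+ US libraries. The log2 change was 0.76 ± 0.18 in Δ/DN and 1.16 ± 0.19 in Δ/+, and for C1rb 0.60 ± 0.20 and 0.99 ± 0.21. With library totals alone the C1ra change in Δ/DN was 0.19 and not called (adjusted p = 0.291). C1ra and C1rb are near-identical copies that may have shared reads, so their separate values are uncertain. Hc, the gene of C5, rose in both genotypes to under 1 CPM, with log2 changes of 2.41 ± 0.43 in Δ/DN and 2.43 ± 0.43 in Δ/+. Cr1l, a membrane regulator, rose by 0.45 ± 0.11 in Δ/DN and 0.59 ± 0.12 in Δ/+, and Itgax, an integrin chain, rose by 0.51 ± 0.14 in Δ/DN, whereas in Δ/+ the change of 0.34 ± 0.15 was not called. With library totals alone Cr1l turned to -0.12 and -0.06 and Itgax in Δ/DN to -0.07.

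C2 and C4a, which encode convertase components, were also called higher in both genotypes at levels up to 3.84 CPM. Both were named after their values were seen. C2 adjoins Cfb, whose reads were far more numerous, and C4a has a near-identical copy, C4b, so both values are uncertain. Called lower with LPS were C1qbp, a mitochondrial protein first named for binding C1q (-0.72 ± 0.12 in Δ/DN and -1.28 ± 0.13 in Δ/+), and Cd93, a membrane protein once proposed as a C1q receptor (-0.96 ± 0.17 and -0.89 ± 0.19). Masp2, a protease of the lectin pathway named on the same terms, was called lower in Δ/DN, with 0 to 5 reads in an LPS and 9 to 30 in a US library. Between genotypes, C1qbp was called higher in Δ/DN with LPS (0.47 ± 0.14, adjusted p = 0.0464), a call kept in 1 of 7 refits without 1 LPS library. Without LPS, Cd46 (0.97 ± 0.36, adjusted p = 0.0983) and Cr1l (-0.24 ± 0.11, adjusted p = 0.193) were not called, nor was the ficolin gene Fcna with LPS (-1.58 ± 0.50, adjusted p = 0.0608). The terminal components C6, C7, C8a, C8b, C8g and C9 and the lectins Mbl1 and Mbl2 had at most 33 reads each in a library. The integrin chains of complement receptors 3 and 4, Itgam, Itgax and Itgb2, averaged 724 to 1397 CPM over the groups.

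**Figure D5:**
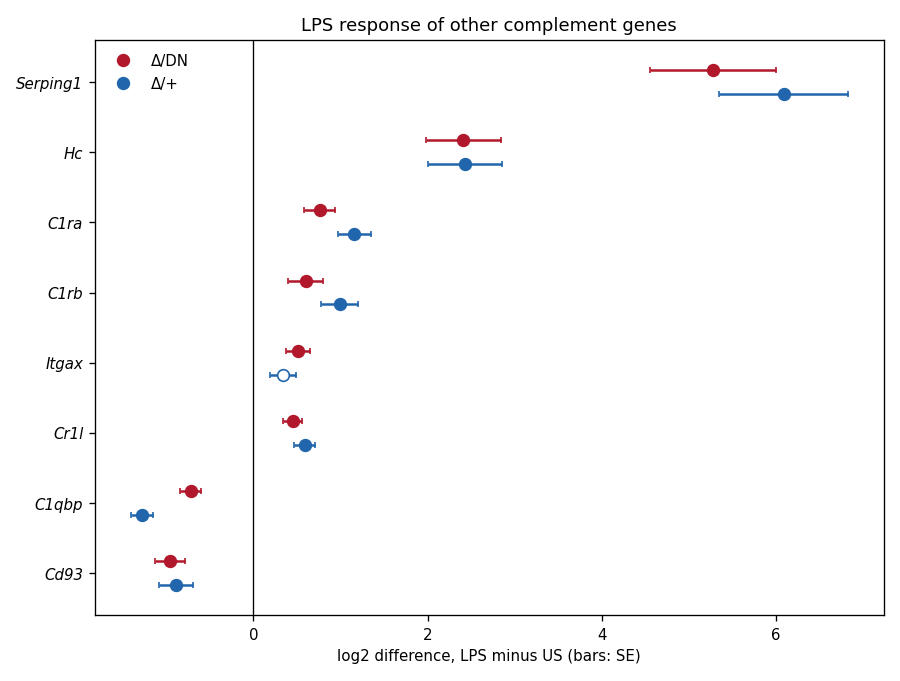
Log2 change with LPS of 8 other complement genes in Δ/DN (red, upper of each pair) and Δ/+ cultures (blue); bars are SE, filled points were called and open points were not. Serping1 lies farthest right, at 5.28 and 6.09, and C1qbp and Cd93 lie left of 0.

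Profiles over the 15 libraries were compared by the root-mean-square (RMS) difference of log2 CPM after centring each gene, among 11243 protein-coding genes of at least 1 CPM on average. C1qb and C1qc were each other's nearest genes, at 0.0686, and C1qa was nearest to C1qc (0.221) and C1qb (0.231). The next nearest to C1qb and C1qc was H2-DMb2 (0.205 and 0.189), a gene of the class II peptide-loading machinery. C3 was nearest to Etv3 (0.124), Gpr132 and Alpk1, and Cfb to the interferon-induced genes Slfn8 (0.295), Ifi209 and Ifi204. Cfp was nearest to Atpif1 (0.0997), Atp5o and Myl6, C3ar1 to Parvb (0.183), Capn2 and Mapk7, C5ar1 to Map4k4 (0.245), Arl5a and Nf1, and C5ar2 to Gpr146 (0.527), Angptl4 (0.527) and B3gnt7. The libraries share treatment, genotype and set, and the measure describes likeness in these libraries only. It tends to be smaller for genes that vary little. The RMS of a member around its own mean ran from 0.259 for Cfp to 2.16 for C5ar2, with 0.403 for C1qb and 2.00 for Cfb. The values thus do not rank likeness across members.

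Macrophage markers bear on C1q, which macrophages are known to express. Their summed level was 3503 to 4711 CPM in Δ/DN LPS and 3513 to 4002 CPM in Δ/+ LPS libraries, and 3120 to 3690 CPM in Δ/DN US and 2601 to 3074 CPM in Δ/+ US libraries. The sums did not overlap between genotypes without LPS. Among these markers, Gpnmb (815 CPM in Δ/DN US and 379 CPM in Δ/+ US) and Axl (890 and 670 CPM) had the largest gaps. Others, such as Apoe (39.7 and 108 CPM) and Csf1r (717 and 764 CPM), were lower in Δ/DN. Of 15 macrophage markers tested without LPS, 1 was called higher in Δ/DN (Gpnmb, 1.11 ± 0.20) and 1 lower (Cd68, -0.37 ± 0.10), 7 had a positive and 8 a negative log2 difference, and the median was -0.06. Of all genes 5.01% were called higher and 5.45% lower in that comparison. Folr2, of tissue macrophages, was at 0 in all Δ/+ libraries and had at most 4 reads in a Δ/DN library. Neutrophils are known to carry C5ar1. Neutrophil markers summed to 178 to 1261 CPM in Δ/DN LPS and 113 to 164 CPM in Δ/+ LPS libraries. Without LPS they summed to 179 to 1119 CPM in Δ/DN and 132 to 213 CPM in Δ/+ libraries. The upper ends of both Δ/DN ranges were of culture 4, in which S100a8 reached 336 CPM and S100a9 392 CPM with LPS. The lowest Δ/DN LPS values of these genes were 37.3 and 24.6 CPM. Of 12 neutrophil markers 1, Csf3r, was called higher in Δ/DN, both with LPS (1.02 ± 0.27, adjusted p = 0.0348) and without (1.21 ± 0.24, adjusted p = 0.0111), and the median log2 differences were 1.03 and 1.01. Monocyte markers summed to 2376 to 3459 CPM in Δ/DN US and 3992 to 5330 CPM in Δ/+ US libraries. Most of that sum was Fn1 (1535 CPM in Δ/DN and 3058 CPM in Δ/+) and Chil3 (733 and 1138 CPM). Of 8 monocyte markers 2 were called lower, and 3 had a positive and 5 a negative log2 difference. Conventional dendritic cell markers summed to 2669 to 3875 CPM in Δ/DN US and 2925 to 3484 CPM in Δ/+ US libraries, with 4 of 15 called higher. Though these sums overlapped, 14 of the 15 had a positive and 1 a negative log2 difference without LPS, with a median of 0.37. With LPS 12 were positive and 3 negative, with a median of 0.27. The shares of all genes called without LPS, 5.01% higher and 5.45% lower, apply to both lists. The part of these cell types in the results was not tested.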

How the data were processed

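Ribosomal RNA was depleted from the RNA of 15 BMDC samples before library preparation with a KAPA RNA HyperPrep kit, as the labels' protocols state. The authors deposited whole-number read counts per gene for each library. The submitters' processing notes name Trimmomatic 0.33, HISAT2 2.2.1, featureCounts and edgeR, and the builds mm39 and GRCm39. Their settings, and whether strand was used, are not given in the sources used here. More genes had a count of 2 than of 3 in 15 of 15 libraries, and than of 1 in 12, and whether mates were counted separately was not tested.

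Groups came from sample titles. The test was edgeR 4.0.16 (glmQLFit with robust dispersion, glmQLFTest, TMM, filterByExpr with a minimum count of 10) in R 4.3.3, with 4 groups and library set as terms, over 5 comparisons. DESeq2 1.42.0 and limma 3.58.1 (voom, with culture as a random effect) served as alternatives. The test was checked on simulated counts. Library names tie the US and LPS libraries of 7 cultures together. Their deviations from the group means correlated at 0.06 to 0.43 within a culture. Each US library was also set against LPS libraries of other cultures of its genotype, where the correlation was at most 0.14. In each of the 7 it was below that within the culture. Deviations cancel out within a group, so a positive value within a culture lowers the others, and this comparison cannot by itself show pairing.

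Deposited gene lengths exceeded the gene's RefSeq span for 5355 of 48903 genes (11.0%), so levels per length used the longest coding transcript of GENCODE M21 instead. Promoter sequences are RefSeq's on GRCm38.p6, a build other than that of the counts, and were matched by symbol for 7 of 9 members. Members, lists and the rule for other named genes (3 smallest p per comparison, plus those called with LPS that average 5 CPM in a group) were chosen with earlier results of these data known. One of the other complement genes is not reported here.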

Additional observations from a re-analysis of the deposited data

Results flagged for a closer look

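C3ar1 stood at 266 CPM in Δ/+ US replicate 4, far from the other Δ/+ US libraries at 136 to 145 CPM. It is the only Δ/+ library of set 3, and it has no LPS partner. C5ar1 stood at 82.8 CPM in Δ/DN LPS replicate 2, far from the other Δ/DN LPS libraries at 45.9 to 51.5 CPM. Chance alone flags about 1 in 20 groups in this way, and the causes were not tested.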

How the results depend on the processing

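The LPS calls of C3, Cfb and C5ar2 in both genotypes and the higher C1qa of Δ/DN without LPS were kept when any 1 library of the comparison was left out. Leaving out 1 library in turn gave 1 to 5 members called between genotypes without LPS (5 with all libraries) and 0 to 1 with LPS (1 with all). Without LPS the count of members called was 3 with no filter on low counts, 1 with no set term, 2 in set 2 alone and 2 without cultures 3 and 4. With LPS it was 2 in DESeq2, 4 with library totals alone, 0 with no set term, 2 in set 2, 0 when only the LPS groups entered the fit, 4 without culture 3, 2 without culture 4 and 2 without both. For LPS in Δ/DN it was 8 with library totals alone and 3 in set 2 or without both cultures, and in Δ/+ 9 with library totals alone.

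The replicate block, pairing the libraries of a culture as a fixed term, gave 1 member called in the difference of the LPS responses (C5ar1) and 106 genes called in all, against 1 gene without it. As a random effect it gave 2 genes. Beside C5ar1, and C1qa with LPS in Δ/DN, the block as a fixed term ended or made no call of a member. As a random effect it made 1, C5ar2 without LPS.

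Some values turned sign. Once turned, each was uncalled but those of C1qb, C1qc and Cfp with LPS under library totals alone. Not all had been near 0. In the edgeR test used above, the difference of the responses was -0.91 for Cfb. In that test Cr1l in both genotypes and Itgax in Δ/DN were called higher with LPS. With library totals alone C3 between genotypes was 0.06 with LPS and 0.03 without, C1qb with LPS -0.54 in both genotypes, C1qc -0.49 in Δ/+, Cfp -0.48 in Δ/DN and -0.49 in Δ/+, Cr1l -0.12 and -0.06, Itgax -0.07 in Δ/DN, and the differences of the responses 0.03 for C3 and 0.02 for Cfp. With no set term C1qa with LPS in Δ/+ was 0.14. The difference of the responses in set 2 was 0.10 for C1qb, 0.18 for C3, 0.22 for Cfb and 0.15 for Cfp. Without culture 3 it was 0.03 for C1qb, 0.01 for Cfb and 0.04 for Cfp, and without culture 4 0.03 for C3. Without both it was 0.08 for C1qb, 0.17 for C3, 0.21 for Cfb and 0.13 for Cfp, and with the fixed block 0.01 for C3. Leaving out 1 library gave ranges that crossed 0 of -0.09 to 0.19 for C3ar1 between genotypes with LPS, and -0.17 to 0.03 for C3 and -0.99 to 0.29 for Cfb without. They were -0.06 to 0.21 for C1qb with LPS in Δ/DN and -0.09 to 0.07 for C1qa with LPS in Δ/+. For the difference of the responses they were -0.27 to 0.11 for C1qb, -0.31 to 0.03 for C1qc, -0.14 to 0.06 for C3, -1.25 to 0.20 for Cfb and -0.17 to 0.04 for Cfp. The causes were not tested.

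Of all gene values under alternatives other than leaving out 1 library, 635 kept their direction and side of the threshold, 28 came to pass it, 46 ceased to and 26 turned sign. Without division by length, C3 and not Cfp was highest without LPS (675 and 383 CPM in Δ/DN, 719 and 282 CPM in Δ/+), C3 exceeded Cfb in Δ/DN LPS (1639 and 1076 CPM), and C1qa stood below C3ar1 and C5ar1 in Δ/+ LPS (47.0, 79.0 and 55.6 CPM) and, likewise, in Δ/+ US. C5ar2 with LPS rests on 26 to 148 reads a library. A count of 0 allows up to 0.0288 to 0.0805 CPM of a library's unscaled total (3 counts), for counting error only. The levels above use TMM-scaled totals, on which these bounds differ.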
